A study of Mus musculus with 6 samples.

Results

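The genes described here write, copy and remove DNA methylation, or supply a substrate for its removal. They are the DNA methyltransferases *Dnmt1*, *Dnmt3a* and *Dnmt3b*, the TET enzymes *Tet1*, *Tet2* and *Tet3*, the isocitrate dehydrogenases *Idh1* and *Idh2*, and *Uhrf1*. They were chosen by gene symbol, and all 9 were found among the 41128 genes of the expression table. RNA was sequenced from flow-sorted KIT+Gr1+ acute myeloid leukemia (AML) cells of the bone marrow (BM) of 6 mice on a C57BL/6 background, with 1 library per mouse. KIT+ BM cells of female CD45.1+ donors were infected with 2 retroviral vectors and, after drug selection, transplanted into lethally irradiated female CD45.2+ recipients. Cells of both groups carried *Hoxa9*. The *Hoxa9*/MTV group (mice 1.1, 1.2 and 1.4) carried the empty vector MTV with it, and the *Hoxa9*/*IRX3* group (mice 3.2, 3.3 and 3.5) carried the homeobox gene *IRX3* as a human cDNA. Viable donor cells were sorted after thawing, each group had 3 mice, and the mouse numbers do not pair the groups. Both genes were driven by retroviral vectors in all transduced cells, so that their levels are not those of the endogenous genes. The question was whether leukemias with *IRX3* differ from leukemias without it in their expression of this machinery.

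Methylation of cytosine in CpG dinucleotides is copied to the new DNA strand after replication by DNMT1. UHRF1 binds hemimethylated CpG and brings DNMT1 to it. DNMT3A and DNMT3B methylate unmethylated DNA. TET enzymes oxidise 5-methylcytosine, the first step of its removal, and need 2-oxoglutarate to do so. IDH1 in the cytosol and IDH2 in mitochondria make 2-oxoglutarate from isocitrate. DNMT3A, TET2, IDH1 and IDH2 are among the genes recurrently mutated in human AML, and mutant IDH enzymes make 2-hydroxyglutarate, which inhibits TET enzymes.

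Promoter sequences show how unlike the start sites of these genes are. RefSeq (GRCm38.p6) listed 15 start sites for the 9 genes, and the 250 bases before each were examined. They held from 2 CpG, before one of 3 starts of *Dnmt1*, to 51, before the start of *Tet2*, and the median over 32851 mouse promoters was 6. The letters TTTCGCGC and TTTGGCGC, forms of the site bound by E2F factors of the cell cycle, were searched on both strands. One or the other occurred in 215 of the 32851 promoters (0.654%). Among the 9 genes they were found before 1 start of *Dnmt1* and 1 start of *Uhrf1*, the pair that acts at replication. The promoter of *Uhrf1* and a 30-base stretch before the *Dnmt1* start are shown for these letters, in capitals, and the promoters of *Dnmt3a* and *Dnmt3b* for comparison, since neither motif occurs there. All read 5′ to 3′ in the direction of the gene.
Uhrf1, chr17:56304063-56304312, plus strand: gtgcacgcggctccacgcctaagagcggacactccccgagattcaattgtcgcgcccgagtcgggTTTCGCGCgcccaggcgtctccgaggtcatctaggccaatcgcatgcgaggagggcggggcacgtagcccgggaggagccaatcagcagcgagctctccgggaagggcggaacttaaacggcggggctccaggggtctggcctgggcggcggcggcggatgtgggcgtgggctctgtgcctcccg
Dnmt1, chr9:20952824-20952853, minus strand: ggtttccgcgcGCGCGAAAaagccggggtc
Dnmt3a, chr12:3806730-3806979, plus strand: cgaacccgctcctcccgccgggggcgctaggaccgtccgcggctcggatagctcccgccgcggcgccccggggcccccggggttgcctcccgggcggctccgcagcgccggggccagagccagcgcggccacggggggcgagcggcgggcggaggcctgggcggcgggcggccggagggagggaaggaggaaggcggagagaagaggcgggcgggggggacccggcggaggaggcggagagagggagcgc
Dnmt3b, chr2:153649199-153649448, plus strand: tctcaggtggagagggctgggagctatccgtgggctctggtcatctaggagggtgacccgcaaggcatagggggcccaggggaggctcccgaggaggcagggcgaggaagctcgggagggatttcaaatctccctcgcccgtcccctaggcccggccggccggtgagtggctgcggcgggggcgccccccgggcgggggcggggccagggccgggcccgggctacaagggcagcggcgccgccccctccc
In *Uhrf1* the letters began 185 bases before the start. In *Dnmt1* they were the reverse complement, GCGCGAAA, and began 219 bases before the start, inside an annotated exon of the gene (GENCODE M21). The windows shown for *Uhrf1*, *Dnmt3a* and *Dnmt3b* held 30, 38 and 21 CpG. A match describes the letters of the window and is not evidence of binding.

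Expression was given as RPKM, reads per kilobase of gene scaled by the mapped reads of the library, where a gene is its whole span with introns. Library sizes recovered from the steps between low values were between 7979246 and 9803621 reads. Changes are given for *Hoxa9*/*IRX3* relative to *Hoxa9*/MTV as differences of log2(RPKM + 0.5), which makes changes of weakly expressed genes look smaller than they are, and were tested with limma over 9522 protein-coding genes with Benjamini-Hochberg adjustment. The adjusted p was under 0.05 for 510 of these (5.36%), of which 175 (1.84%) were higher and 335 (3.52%) lower in *Hoxa9*/*IRX3* cells, and 298 (3.13%) also passed a 2-fold change. The groups did not overlap for 3213 genes (33.7%). *Irx3* had no reads in *Hoxa9*/MTV cells, whereas mice 3.2, 3.3 and 3.5 had 15.1, 0.421 and 0.148 RPKM, from reads of the human cDNA or of the mouse gene that aligned there. Cells were sorted for KIT and Gr1. *Kit* lay between 1.63 and 3.12 RPKM in the 6 mice. *Ly6g*, which encodes a Gr1 antigen, was at 0.0532 to 0.145 RPKM in *Hoxa9*/MTV mice, from only 2 to 5 reads. In *Hoxa9*/*IRX3* mice it was at 0.682 to 1.42 RPKM, from 26 to 49 reads, without overlap. *Ly6c2*, of the same family, spanned 412.7 to 478.5 RPKM in *Hoxa9*/MTV, whereas its RPKM was 414.2 in mouse 3.2, 789.7 in mouse 3.3 and 843.9 in mouse 3.5. Their part in the values of the members was not tested.

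None of the 9 genes passed the test. Of them 8 were tested, with 0 at an adjusted p under 0.05 by limma and 0 at an unadjusted p under 0.05, where 24.3% of all tested genes had an unadjusted p under 0.05. *Tet1* never reached 0.5 RPKM and was not tested. By estimate 5 were lower and 3 higher in *Hoxa9*/*IRX3* cells, with a median log2 fold change of -0.29, compared with -0.06 over all tested genes. The groups did not overlap for 1 of the 8, *Dnmt3b*, against 33.7% of all tested genes. Several genes differed among the *Hoxa9*/*IRX3* mice themselves. *Dnmt3a*, *Dnmt3b*, *Tet2* and *Idh2* each differed more than 2-fold between the highest and lowest of these mice and less than 2-fold among *Hoxa9*/MTV mice, while *Tet1* did so in both groups. A wider spread in *Hoxa9*/*IRX3* was general, since it held for 76.03% of all tested genes. In bulk RNA, fewer cells expressing a gene and less RNA per cell cannot be told apart.

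**Figure D1:**
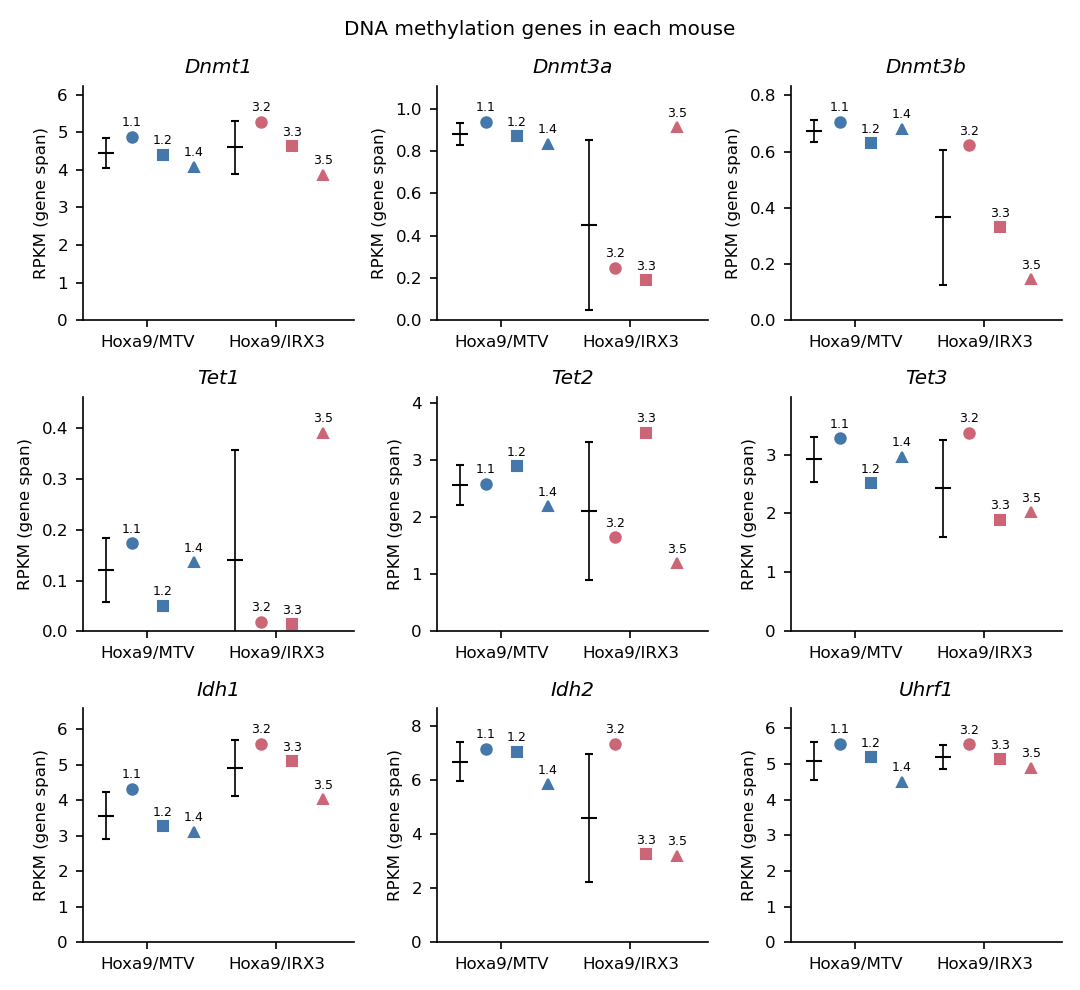
RPKM per gene span of each of the 9 genes in each mouse (points, labelled by mouse) with the mean and SD of each group of 3 (black, cut off at 0 for Tet1). Dnmt1 and Uhrf1 lie at the same height in both groups, while Dnmt3a is at 0.249 and 0.189 in mice 3.2 and 3.3 and at 0.912 in mouse 3.5.

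Levels of different genes were compared as RPKM per exon length, computed from the same reads. In *Hoxa9*/MTV cells the order of mean levels was *Idh2* (53.2), *Idh1* (36.0), *Dnmt1* (31.8), *Uhrf1* (24.1), *Tet3* (16.9), *Tet2* (12.4), *Dnmt3a* (5.73), *Dnmt3b* (5.04) and *Tet1* (0.813). The ranges of neighbours in that order over the *Hoxa9*/MTV mice did not overlap, except those of *Idh1* and *Dnmt1*. The maintenance pair thus stood well above both de novo enzymes in these cells. In *Hoxa9*/*IRX3* cells *Idh1* (49.4) and *Idh2* (36.6) changed places in mean RPKM per exon length and the other 7 kept theirs. There, 6 of the 8 neighbouring pairs overlapped, and the pairs that did not were *Dnmt1* with *Uhrf1* and *Uhrf1* with *Tet3*.

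Transcripts of the maintenance pair had the smallest changes between the groups, by estimate, of the tested members. *Dnmt1* (ENSMUSG00000004099, chr9:20907209-20959888, minus strand), which copies methylation at replication, was at 4.87, 4.41 and 4.08 RPKM in *Hoxa9*/MTV mice 1.1, 1.2 and 1.4. It was at 5.28, 4.63 and 3.88 RPKM in *Hoxa9*/*IRX3* mice 3.2, 3.3 and 3.5, which held both the highest and the lowest value of the 6. The groups overlapped fully, with a log2 fold change of 0.03 (SE 0.14, 95% interval -0.31 to 0.38, adjusted p = 0.904 by limma).

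*Uhrf1* (ENSMUSG00000001228, chr17:56303321-56323486, plus strand), its recruiter, was at 5.56, 5.19 and 4.50 RPKM in mice 1.1, 1.2 and 1.4 and at 5.55, 5.13 and 4.90 RPKM in mice 3.2, 3.3 and 3.5. All *Hoxa9*/*IRX3* values lay inside the range of *Hoxa9*/MTV, and the log2 fold change was 0.03 (SE 0.13, 95% interval -0.27 to 0.33, adjusted p = 0.904 by limma). Both intervals leave out a change of 1.5-fold in either direction, taken as RPKM + 0.5. The sign of both estimates turned without mouse 1.4 (-0.02 for *Dnmt1* and -0.05 for *Uhrf1*) and without mouse 3.2 (-0.06 and -0.01). The ratio of *Uhrf1* to *Dnmt1* per exon length was 0.757 ± 0.0251 (SD, n = 3) in *Hoxa9*/MTV and 0.756 ± 0.0730 (SD, n = 3) in *Hoxa9*/*IRX3* cells. Across the 6 mice the pair had a Pearson r of 0.84 on log2(RPKM + 0.5), a description over mice that share a library each for both genes. The median of 23 S phase and mitosis genes, on the same scale, had an r of -0.29 with *Dnmt1* and -0.01 with *Uhrf1*.

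The de novo enzymes were steady in *Hoxa9*/MTV mice and scattered in *Hoxa9*/*IRX3* mice, each in its own way. *Dnmt3a* (ENSMUSG00000020661, chr12:3806007-3914443, plus strand) was at 0.938, 0.869 and 0.833 RPKM in mice 1.1, 1.2 and 1.4, from 899, 783 and 874 reads. In mice 3.2, 3.3 and 3.5 it was at 0.249, 0.189 and 0.912 RPKM, from 239, 201 and 789 reads. Mice 3.2 and 3.3 lay below every *Hoxa9*/MTV mouse, whereas mouse 3.5 lay inside their range. The exact Poisson 95% intervals of the reads, which cover counting error only, were 210 to 271 in mouse 3.2, 174 to 231 in mouse 3.3 and 735 to 846 in mouse 3.5. Counting error is therefore small beside the gap between these mice. *Dnmt3a* had a log2 fold change of -0.62 (SE 0.28, 95% interval -1.28 to 0.05, adjusted p = 0.231 by limma). Mouse 3.5 decided that call. Without it the log2 fold change of *Dnmt3a* was -0.94 with an adjusted p of 0.0215 by limma, and under the other alternatives the adjusted p ranged up to 0.426. Mouse 3.5 was left out as each mouse was in turn, and nothing in the labels sets it apart. The size of the estimate also rested on the scale, with -1.07 at a pseudocount of 0.1, -1.12 per exon length and -1.37 by limma voom on the recovered reads.

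*Dnmt3b* (ENSMUSG00000027478, chr2:153649450-153687730, plus strand) was at 0.706, 0.629 and 0.681 RPKM in mice 1.1, 1.2 and 1.4, from 239, 200 and 252 reads. It was at 0.622, 0.330 and 0.147 RPKM in mice 3.2, 3.3 and 3.5, from 211, 124 and 45 reads. All *Hoxa9*/*IRX3* mice lay below all *Hoxa9*/MTV mice, but mouse 3.2 by less than the counting error, since its interval in RPKM was 0.541 to 0.712. The two-sided exact permutation test on RPKM gave p = 0.1, below which a design of 3 against 3 cannot go. The log2 fold change of *Dnmt3b* was -0.47 (SE 0.21, 95% interval -0.98 to 0.04, adjusted p = 0.231 by limma) and the adjusted p was 0.0613 without mouse 3.2. The estimate was -0.86 at a pseudocount of 0.1, -0.93 per exon length and -1.07 by voom, and -0.28 without mouse 3.5. In mouse 3.3 both de novo genes lay below every *Hoxa9*/MTV mouse by more than the counting error. They parted in mouse 3.5, which had the highest *Dnmt3a* and the lowest *Dnmt3b* of the *Hoxa9*/*IRX3* group. Mouse 3.2 had the highest *Dnmt3b* of that group, with *Dnmt3a* below every *Hoxa9*/MTV mouse.

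The shares of the DNMT sum, per exon length, put this on a scale that does not depend on library size. *Dnmt1* made up 75.3%, 75.2% and 73.4% of the sum in mice 1.1, 1.2 and 1.4 and 85.7%, 89.9% and 79.7% in mice 3.2, 3.3 and 3.5. Its share was higher in every *Hoxa9*/*IRX3* mouse, 85.1% ± 5.13 against 74.7% ± 1.05 (SD, n = 3 each). *Dnmt3b* made up 11.9% ± 0.872 in *Hoxa9*/MTV and 6.84% ± 3.71 in *Hoxa9*/*IRX3* cells (SD, n = 3 each), again without overlap. *Dnmt3a* made up 13.2% to 13.7% in *Hoxa9*/MTV mice and 3.69%, 3.35% and 17.1% in mice 3.2, 3.3 and 3.5, on both sides of them. For *Dnmt1* and for *Dnmt3b* the exact permutation p was 0.1, the smallest possible, and 0.24 after Benjamini-Hochberg adjustment over 12 shares and ratios, so that neither passed. These shares are not independent of each other.

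**Figure D2:**
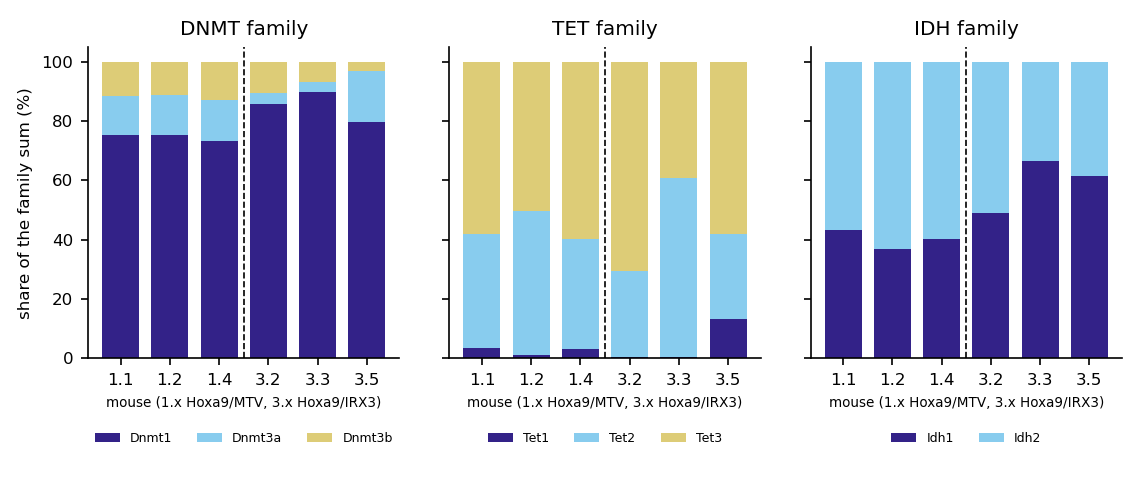
Share (%) of each enzyme in the sum of its family, as RPKM per exon length, in each mouse, with Hoxa9/MTV mice left and Hoxa9/IRX3 mice right of the dashed line. The Dnmt1 share is 73.4% to 75.3% in Hoxa9/MTV and 79.7% to 89.9% in Hoxa9/IRX3 mice, and the Idh1 share is 36.9% to 43.3% against 49.1% to 66.5%.

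Among the TET enzymes, *Tet3* and *Tet2* held most of the reads, and *Tet1* was the weakest in every mouse. *Tet2* (ENSMUSG00000040943, chr3:133463679-133545139, minus strand), the TET gene most often mutated in myeloid malignancy, was at 2.59, 2.90 and 2.199 RPKM in mice 1.1, 1.2 and 1.4. In mice 3.2, 3.3 and 3.5 it was at 1.65, 3.48 and 1.20 RPKM. Mouse 3.3 had the highest *Tet2* of all 6 mice and mice 3.2 and 3.5 had the lowest, so that the *Hoxa9*/MTV mice lay between them. The log2 fold change of *Tet2* was -0.32 (SE 0.31, 95% interval -1.06 to 0.42, adjusted p = 0.554 by limma), and without mouse 3.3 it was -0.67 with an adjusted p of 0.0714. Without mouse 3.5 it was -0.06 with an adjusted p of 0.917.

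*Tet3* (ENSMUSG00000034832, chr6:83362373-83459084, minus strand) was at 3.27, 2.51 and 2.96 RPKM in mice 1.1, 1.2 and 1.4 and at 3.37, 1.89 and 2.02 RPKM in mice 3.2, 3.3 and 3.5. Mouse 3.2 was the highest of the 6, but above mouse 1.1 by less than the counting error (interval of mouse 3.2 in RPKM 3.25 to 3.49). Mice 3.3 and 3.5 were the lowest. The log2 fold change of *Tet3* was -0.25 (SE 0.21, 95% interval -0.75 to 0.25, adjusted p = 0.491 by limma). *Tet1* (ENSMUSG00000047146, chr10:62804570-62908996, minus strand), prominent in embryonic stem cells, was at 0.173, 0.0509 and 0.137 RPKM in mice 1.1, 1.2 and 1.4. It was at 0.0191, 0.0140 and 0.391 RPKM in mice 3.2, 3.3 and 3.5, from about 18, 14 and 326 reads. Mice 3.2 and 3.3 were thus the lowest of the 6 in both *Tet1* and *Dnmt3a*, and mouse 3.5 was the highest in *Tet1*. With no filter on low values the log2 fold change of *Tet1* was 0.00 (adjusted p = 0.998 by limma), and per exon length -0.26 (adjusted p = 0.843).

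The balance of the TET family differed more within *Hoxa9*/*IRX3* than between groups. *Tet2* made up 38.3%, 48.4% and 37.0% of the TET sum per exon length in mice 1.1, 1.2 and 1.4 and 28.9%, 60.3% and 28.7% in mice 3.2, 3.3 and 3.5. Its mean share was 41.2% ± 6.26 and 39.3% ± 18.2 (SD, n = 3 each). *Tet1* reached 13.1% of the TET sum in mouse 3.5 and between 0.340% and 3.59% in the other mice.

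The isocitrate dehydrogenases moved apart by estimate. *Idh1* (ENSMUSG00000025950, chr1:65158616-65186500, minus strand), the cytosolic enzyme, was at 4.33, 3.27 and 3.12 RPKM in mice 1.1, 1.2 and 1.4 and at 5.60, 5.10 and 4.04 RPKM in mice 3.2, 3.3 and 3.5. The groups overlapped through mouse 3.5 and mouse 1.1 alone. The log2 fold change of *Idh1* was 0.41 (SE 0.17, 95% interval -0.00 to 0.82, adjusted p = 0.207 by limma), and the adjusted p lay between 0.117 and 0.481 under the alternatives.

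*Idh2* (ENSMUSG00000030541, chr7:80094846-80115392, minus strand), the mitochondrial enzyme, was at 7.18, 7.07 and 5.85 RPKM in mice 1.1, 1.2 and 1.4, from 1305, 1207 and 1163 reads. It was at 7.36, 3.26 and 3.21 RPKM in mice 3.2, 3.3 and 3.5, from 1340, 657 and 526 reads. Mouse 3.2 was the highest of all 6, but above mouse 1.1 by less than the counting error (interval of mouse 3.2 in RPKM 6.97 to 7.77). Mice 3.3 and 3.5 lay below every *Hoxa9*/MTV mouse. The log2 fold change of *Idh2* was -0.58 (SE 0.30, 95% interval -1.31 to 0.14, adjusted p = 0.288 by limma). Mouse 3.2 decided that call, since without it the log2 fold change was -0.94 with an adjusted p of 0.0219.

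Within each mouse the ratio of *Idh2* to *Idh1* per exon length was 1.31, 1.71 and 1.48 in mice 1.1, 1.2 and 1.4. In mice 3.2, 3.3 and 3.5 the ratio was 1.04, 0.505 and 0.627, lower than in every *Hoxa9*/MTV mouse although *Idh2* itself was not lower in mouse 3.2. Its mean was 1.498 ± 0.200 against 0.723 ± 0.279 (SD, n = 3 each), and the *Idh1* share of the IDH sum was 40.2% ± 3.19 against 59.0% ± 8.95. The ratio had an exact permutation p of 0.1, the smallest possible, and an adjusted p of 0.24 over the 12 shares and ratios. Mouse 3.2 reached its lower ratio with the highest *Idh1* of the 6 mice, and mice 3.3 and 3.5 with the lowest *Idh2*.

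**Figure D3:**
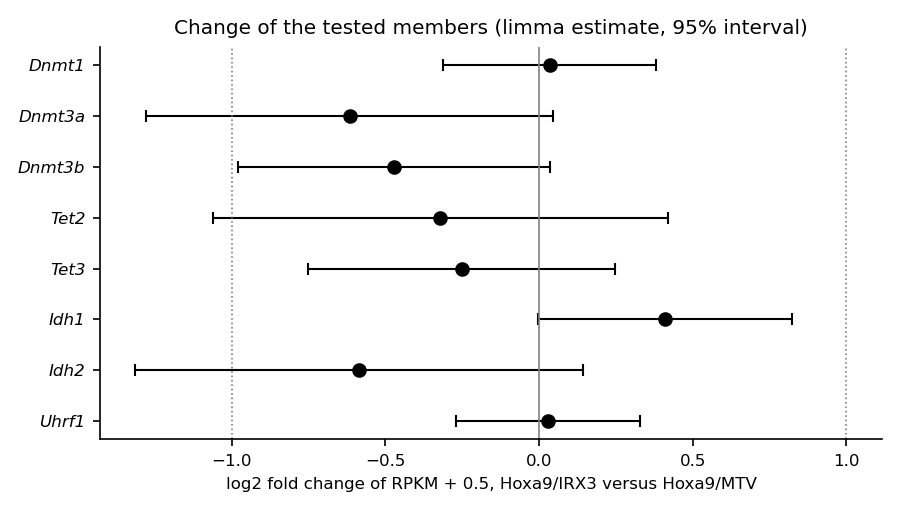
Log2 fold change of RPKM + 0.5 (x axis), Hoxa9/IRX3 versus Hoxa9/MTV, with the 95% interval by limma (bars) for the 8 tested genes (y axis). All intervals hold 0, that of Idh1 at its lower end (-0.00), and those of Dnmt1 and Uhrf1 are the ones centred nearest 0 (0.03 each).

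The spread between mice was wider in *Hoxa9*/*IRX3* for most genes, members included. On log2(RPKM + 0.5) the median SD over all tested genes was 0.121 in *Hoxa9*/MTV and 0.242 in *Hoxa9*/*IRX3*, and 76.03% of genes had the larger SD in *Hoxa9*/*IRX3*. This held for 6 of the 8 tested members, the exceptions being *Uhrf1* and *Idh1*. The SD of *Dnmt3a* went from 0.055 to 0.566, that of *Dnmt3b* from 0.049 to 0.397, that of *Tet2* from 0.166 to 0.635 and that of *Idh2* from 0.153 to 0.620. In *Hoxa9*/*IRX3* the SD of *Tet2*, *Idh2* and *Dnmt3a* was above that of 89.3%, 88.8% and 86.6% of tested genes, while *Uhrf1*, at 0.083, was above 10.5% of them. No test was made of these SDs, which rest on 3 mice each.

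**Figure D4:**
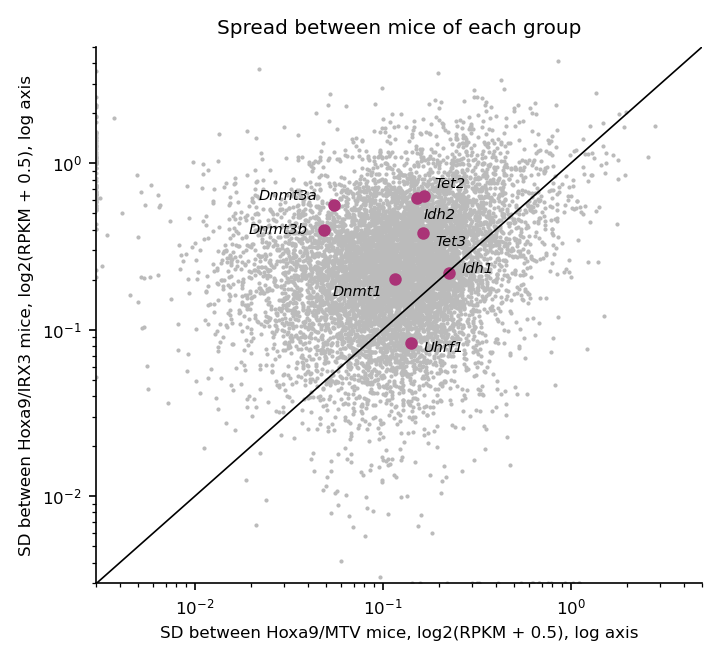
SD between the 3 Hoxa9/IRX3 mice (y, log axis) against SD between the 3 Hoxa9/MTV mice (x, log axis) of log2(RPKM + 0.5) for the 9522 tested genes (grey, values below the axes drawn at their edge) and the 8 tested members (purple), with the line of equality. Dnmt3a and Dnmt3b lie far above the line (0.566 against 0.055 and 0.397 against 0.049) and Uhrf1 below it (0.083 against 0.142).

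Few other genes of the pathway passed the test. In 5 lists of partners, readers, repair enzymes and metabolic enzymes, 77 of 89 genes were tested, of which 1 rose and 1 fell (2.60%, against 5.36% of all tested genes). Among 17 partners and regulators of DNA methylation, 14 were tested and 0 passed (median log2 fold change -0.11, 1 at an unadjusted p under 0.05). The most abundant of these was *Trim28*, a corepressor that keeps imprinted regions and retroelements silent, at 49.96 ± 0.175 and 42.5 ± 4.30 RPKM (SD, n = 3 each, adjusted p = 0.329 by limma). Next was the histone methyltransferase *Suv39h1* at 12.4 ± 1.38 and 9.91 ± 0.731 RPKM (adjusted p = 0.232 by limma). Of 10 methyl-CpG-binding and related readers, all tested, 0 passed (median 0.00, 3 at an unadjusted p under 0.05), with *Mbd6* at 19.2 ± 0.652 and 16.2 ± 2.78 RPKM and *Mbd3*, a NuRD subunit, at 18.2 ± 0.759 and 14.6 ± 1.28 RPKM the most abundant.

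Of 19 genes for repair of oxidised cytosine and TET partners, 15 were tested, with a median log2 fold change of -0.23. By limma 1 rose and 1 fell (13.3%, against 5.36% of all tested genes), and 5 had an unadjusted p under 0.05, against 24.3% of all tested genes. *Lig3*, the DNA ligase that seals single-strand breaks in base excision repair, rose. Its RPKM was 2.96, 2.83 and 2.59 in mice 1.1, 1.2 and 1.4 and 4.47, 4.62 and 4.07 in mice 3.2, 3.3 and 3.5, and by limma the log2 fold change was 0.57 (SE 0.11) at an adjusted p of 0.0376. *Parp1*, a sensor of DNA strand breaks, fell in all 3 *Hoxa9*/*IRX3* mice. It was at 4.09, 4.44 and 3.91 RPKM in mice 1.1, 1.2 and 1.4 and at 2.39, 2.501 and 2.11 RPKM in mice 3.2, 3.3 and 3.5, and by limma the log2 fold change was -0.72 (SE 0.11) at an adjusted p of 0.0220. Both kept their direction under every alternative run, and the adjusted p stayed under 0.05 in 10 of 15 fits for *Lig3* and 12 of 15 for *Parp1*, and was highest with 1 mouse left out (0.172 for *Lig3*, 0.113 for *Parp1*). Of the 2 most abundant genes of this list, *Gadd45b* spanned 17.5 to 88.9 RPKM in *Hoxa9*/MTV mice alone, and *Apex1*, the abasic site endonuclease, was at 30.9 ± 1.35 and 28.8 ± 5.52 RPKM (SD, n = 3 each).

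For the methyl donor S-adenosylmethionine and the folate cycle, 16 of 20 genes were tested and 0 passed (median -0.17, 3 at an unadjusted p under 0.05). *Mat2a*, which makes S-adenosylmethionine, was at 43.4 ± 16.6 and 36.8 ± 15.3 RPKM, and the mitochondrial serine hydroxymethyltransferase *Shmt2* was at 27.5 ± 3.64 and 24.8 ± 6.88 RPKM (SD, n = 3 each). For 2-oxoglutarate, isocitrate and succinate metabolism, 22 of 23 genes were tested and 0 passed (median -0.08, 3 at an unadjusted p under 0.05). *Sdhd*, a subunit of succinate dehydrogenase, was at 28.0 ± 3.80 and 22.9 ± 0.597 RPKM, and *Slc25a11*, the mitochondrial 2-oxoglutarate carrier, at 16.0 ± 0.785 and 17.9 ± 1.72 RPKM. Of 23 S phase and mitosis genes, 1 rose and 0 fell (4.35%, against 5.36% of all tested genes; median 0.10, 5 at an unadjusted p under 0.05). This was *Ccne2*, cyclin E2, at 1.55 ± 0.206 and 2.83 ± 0.458 RPKM (log2 fold change 0.70, SE 0.14, adjusted p = 0.0448 by limma), which stayed under 0.05 in 6 of 15 alternative fits. *Mki67* (44.7 ± 4.52 and 54.5 ± 18.7 RPKM) and *Rrm2* (27.6 ± 4.82 and 32.7 ± 9.16 RPKM) did not pass.

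Genes listed as held silent by DNA methylation in somatic cells were read as a further group. Of 17 genes listed as germline genes with methylated promoters, 0 passed the filter and 8 were at 0 in every mouse. The highest of the list was *Zbtb16*, which myeloid progenitors also express, so that its level is not read as that of a silenced gene. It was at 0.183 to 0.268 RPKM in *Hoxa9*/MTV mice, from about 294 to 446 reads. In *Hoxa9*/*IRX3* mice it was at 0.00124 to 0.020 RPKM, from about 2 to 29 reads. *Zbtb16* lay under the filter and was not tested. *Ddx4* had 51 reads in mouse 1.4 and 0 in the 3 *Hoxa9*/*IRX3* mice. No germline gene of the list was therefore above 0.5 RPKM per gene span in either group, although *Zbtb16* was expressed in *Hoxa9*/MTV mice.

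Of 24 imprinted genes 4 passed the filter on low values, and 9 were at 0 in every mouse. *Igf2r* and *Ascl2* passed it through *Hoxa9*/*IRX3* mice alone, so that they could only be called higher, and no count of calls is read from this list. *Igf2r*, a receptor that clears IGF2 and sorts lysosomal enzymes, was at 0.131, 0.0579 and 0.107 RPKM in mice 1.1, 1.2 and 1.4. It was at 0.590, 1.19 and 2.18 RPKM in mice 3.2, 3.3 and 3.5, all above every *Hoxa9*/MTV mouse. By limma this was a change of 1.51 on the log2 scale (SE 0.32) at an adjusted p of 0.0462, given as a description because of that selection. *Airn*, the noncoding RNA that overlaps *Igf2r* on the other strand, had 0, 0 and 1 read in mice 1.1, 1.2 and 1.4 and 53, 467 and 270 reads in mice 3.2, 3.3 and 3.5. Whether strand was used in counting is not given in the sources used here, so reads of *Igf2r* and *Airn* cannot be fully told apart.

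*Cdkn1c*, the CDK inhibitor p57, was at 1.00, 0.669 and 1.07 RPKM in mice 1.1, 1.2 and 1.4 and at 2.59, 6.61 and 11.8 RPKM in mice 3.2, 3.3 and 3.5 (log2 fold change 2.203, SE 0.47, adjusted p = 0.0498 by limma). *Kcnq1ot1*, the noncoding RNA of the same imprinted domain, was not tested and lay at 0.131 to 0.160 RPKM in *Hoxa9*/MTV and 0.336 to 0.436 RPKM in *Hoxa9*/*IRX3* mice. The calls of *Igf2r* and *Cdkn1c* were close to the limit, with an adjusted p under 0.05 in 6 of 14 and 5 of 15 alternative fits. *Ascl2* was at 0.169 to 0.278 RPKM in *Hoxa9*/MTV and at 0, 0.877 and 6.93 RPKM in mice 3.2, 3.3 and 3.5 (adjusted p = 0.426 by limma). Expression does not show which parental allele was read or whether its methylation differed.

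Some genes followed the members from mouse to mouse. Over the 6 mice, among 6969 tested genes whose mean was 1 RPKM or more, the genes most like *Dnmt3a* on log2(RPKM + 0.5) were *Prss16* (Pearson r 0.99) and *Exoc3* (0.99). *Prss16* was at 9.18, 10.04, 8.01, 3.55, 2.76 and 9.36 RPKM in the 6 mice in the order 1.1 to 3.5, low in the same 2 mice as *Dnmt3a*. Those most like *Dnmt3b* were *Slc35c2* and *Cyb5r1* (1.00 each). *Spc24* (1.00) and *Stra13* (0.98) were most like *Tet2*, *Ssbp1* and *Zscan29* (0.99 each) most like *Tet3*, *Gm21992* and *Klhl9* (0.99 each) most like *Idh1*, and *Wbp11* and *Atf2* (0.99 each) most like *Idh2*. *Dnmt1* was most like *Gm9958* (0.99) and *9130401M01Rik* (0.98), and *Uhrf1* had the least close matches, *Snapc2* (0.94) and *Cep170* (0.91). With 6 mice and so many candidates such values describe these libraries, and 144 genes had an r over 0.95 with *Dnmt3b* alone. Among the members themselves r was 0.92 for *Dnmt3b* with *Idh2*, 0.90 for *Tet3* with *Idh2*, 0.84 for *Dnmt3b* with *Tet3* and -0.79 for *Dnmt3a* with *Idh1*. The median of the S phase and mitosis genes had an r of -0.88 with *Tet3* and -0.76 with *Idh2*.

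Markers of other cells and of maturation differed among the mice. The summed levels of neutrophil, mast cell, B cell and erythroid genes did not overlap between the groups, as was the case for 33.7% of all single tested genes. The summed RPKM of 10 neutrophil and granule genes was 2585 to 3976 in *Hoxa9*/MTV and 5226 to 6613 in *Hoxa9*/*IRX3* mice, with 2 of the 10 higher and 0 lower by limma, and 0 of them at 0 in all mice. The 2 were *Elane* and *Ly6g*, the latter past the filter through *Hoxa9*/*IRX3* mice alone. Of 5 mast cell and basophil genes, *Fcer1a* was at 0 in all mice and 2 were lower, with sums of 14.5 to 20.2 and 4.51 to 7.31. The sum of 8 monocyte and macrophage genes was 48.4 to 68.8 in *Hoxa9*/MTV mice, and 1 of the 6 tested was lower. In mice 3.2, 3.3 and 3.5 the sum was 63.0, 25.6 and 22.4. *Dnmt1*, *Uhrf1*, *Dnmt3b*, *Idh1* and *Idh2* had the same order in these mice, with *Idh2* nearly equal in mice 3.3 and 3.5 (3.26 and 3.21 RPKM). That likeness did not hold in *Hoxa9*/MTV mice 1.1, 1.2 and 1.4, where the sums were 53.0, 48.4 and 68.8. There mouse 1.4 had the lowest *Dnmt1*, *Uhrf1*, *Idh1* and *Idh2*. The sum of 6 B cell genes was 6.35 to 7.30 in *Hoxa9*/MTV mice and 0.819, 0.652 and 5.03 in mice 3.2, 3.3 and 3.5, low in the same mice as *Dnmt3a* and *Tet1*, with *Pax5* at 0 in all mice. The sum of 6 T and NK cell genes was 14.9 to 33.0 in 4 mice and 100.2 and 482 in mice 3.2 and 3.5, with *Cd3d* and *Ncr1* at 0 in all mice. Only 1 of these 6 genes passed the filter of 0.5 RPKM, so the sum rests largely on a single gene. Erythroid genes summed to 0.0307 to 0.231 in *Hoxa9*/MTV and 0.268 to 0.303 in *Hoxa9*/*IRX3* mice, a small gap at very low levels. Of the 8, 5 were at 0 in all mice and 0 passed the filter. Megakaryocyte genes (4) summed to 3.87 to 5.96 and 1.61 to 12.8, and stromal genes (6) to 1.83 to 1.98 and 0.568 to 6.34, with overlapping groups as for monocyte and T and NK cell genes. The part of these cell types in the values of the members was not tested.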

How the data were processed

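The authors sequenced paired ends of 75 bases from polyA libraries that keep strand, aligned them with Bowtie2 2.2.1 (GRCm38), filtered alignments with SAMtools 0.1.19, assigned reads to Ensembl genes with Annmap and deposited RPKM per gene and mouse. RPKM are not counts. Here GENCODE M21 gave type, span and exon length for 40254 of 41128 genes. Reads were recovered from the steps between low values and were whole, within 0.01, for 65.0% of tested genes. Reads of *Dnmt1*, *Tet1* and *Tet2* are approximate.

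Protein-coding genes over 0.5 RPKM in at least 1 mouse were tested with limma 3.58.1 in R 4.3.3 (lmFit, eBayes with trend) on log2(RPKM + 0.5), with Benjamini-Hochberg adjustment over all 9522. The scripts were tested on simulated data. Shares and ratios within mice were tested with exact permutation tests in scipy 1.17.1, two-sided. Members and lists were chosen with earlier results of these data known. Genes named besides the members are those of a list with an adjusted p under 0.05, at most 4 per list and direction, the 2 most abundant per list, and the 2 most like each member. *Zbtb16*, *Ddx4*, *Airn*, *Kcnq1ot1* and *Impact* were added after their values were seen. Alternatives were pseudocounts of 0.1 and 1, no filter or over 1 RPKM in 3 mice, median-of-ratios scaling, no variance trend, sample weights, exon length, voom on recovered reads, the study's criterion of an unadjusted p under 0.05 with a 2-fold ratio of means, and leaving out each mouse.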

Additional observations from a re-analysis of the deposited data

How the results depend on the processing

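Of 126 estimates of the members under 16 alternatives, 120 kept their direction and their side of the threshold, 2 passed it and 4 changed sign. With 1 mouse left out, the members with an adjusted p under 0.05 by limma ranged from 0 to 1 (*Idh2* without mouse 3.2, *Dnmt3a* without mouse 3.5), and were 0 under each of the other 10 alternatives. The log2 fold change with 1 mouse left out was -0.061 (without mouse 3.2) to 0.139 for *Dnmt1*, -0.048 (without mouse 1.4) to 0.0911 for *Uhrf1*, -0.0759 (without mouse 1.1) to 1.08 for *Gadd45b*, -0.552 to 0.0288 (without mouse 1.4) for *Mat2a*, -0.0272 (without mouse 3.3) to 0.386 for *Mki67*, and -0.252 to 0.0222 for *Apex1* and -0.331 to 0.0682 for *Shmt2* (both without mouse 3.5). The cause was not tested.

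Over all genes, leaving out a mouse gave 61 to 761 genes with an adjusted p under 0.05, fewest without mouse 1.4 and most without mouse 3.2. Those that also passed 2-fold numbered 61 to 415, and genes of the 5 pathway lists 0 to 4. The count past 2-fold was 552 per exon length, 175 with no filter on low values and 664 by the study's criterion, which called 0 pathway genes. That criterion was applied here to the 9522 tested genes, a set other than the paper's, so 664 is not the paper's own count. The shares of the DNMT and IDH families and their ratios kept their sign under gene span and without each mouse. The TET shares, the ratio of *Tet3* to *Tet2* and that of *Uhrf1* to *Dnmt1*, none of them separate between the groups, changed sign without at least 1 mouse, with differences of -12.4 to 3.36 percentage points for the *Tet2* share, -7.37 to 8.31 for *Tet3* and -2.26 to 4.13 for *Tet1*, -0.0541 to 0.845 for *Tet3* to *Tet2* and -0.0410 to 0.0295 for *Uhrf1* to *Dnmt1*. The *Tet3* share also turned to 0.590 points under gene span. No paired analysis was possible because the groups share fewer than 2 mouse numbers. With 3 mice a group the precision for each member is that of its 95% interval, and *Tet1* lay under the filter of 0.5 RPKM.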
